A study of Mus musculus with 44 samples.

Results

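Retinoic acid is made, carried, sensed and removed by a small set of proteins, and 9 genes of that pathway are described here in 44 mouse RNA-seq libraries: Rdh10, Aldh1a1, Aldh1a2 and Aldh1a3 of synthesis, Crabp1 and Crabp2 of intracellular binding, Cyp26a1 and Cyp26b1 of degradation, and the receptor gene Rarb. They were taken by name from the 32287 gene identifiers of the deposited tables, each name matched 1 identifier, and all 9 were found. The embryos were chimaeras of mCherry+ morulae (CD1/G4) aggregated with GFP+ embryonic stem cells (G4), so that GFP marked epiblast descendants and mCherry marked the extraembryonic endoderm. At E6.5, Epi (GFP, epiblast), exEndo1 (mCherry, distal extraembryonic endoderm) and exEndo2 (mCherry, proximal extraembryonic endoderm) were dissected from single embryos, with 4 libraries in each group. At E9.5, 4 libraries in each group came from pools of 4 embryos: YsEndo (mCherry, yolk sac endoderm), emMidgut and emHindgut (EPCAM+ cells of embryonic origin, from the gate labelled GFP mCherry dual low, described in the study's methods as GFP+ cells that carry low mCherry from extraembryonic remnants), and exMidgut and exHindgut (EPCAM+ mCherry cells of extraembryonic origin). At E13.5, 3 libraries in each group were sorted for EPCAM from single embryos: emSI and emColon (GFP, small intestine and colon, WT) and exSI and exColon (mCherry, labelled Trp53 KO). The cells of all groups other than exSI and exColon were WT. Per the study's methods, the WT cells of emSI and emColon came from embryos whose extraembryonic lineage carried the Trp53 KO. Origin and the parental line were joined in every embryo, and origin and Trp53 genotype were joined at E13.5, so these cannot be told apart.

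Retinol is oxidised to retinaldehyde, chiefly by RDH10 in the embryo, and retinaldehyde dehydrogenases of the ALDH1A family turn it into retinoic acid. CRABP proteins bind the acid in the cytoplasm, RAR and RXR proteins form the nuclear receptor pair that it activates, and CYP26 enzymes of the cytochrome P450 family oxidise and thereby inactivate it. In the trunk of the embryo ALDH1A2 of the mesoderm is the main source, and CYP26A1 in the tail bud keeps the acid low at the posterior end, where the hindgut forms. Rarb and Cyp26a1 are textbook direct targets of the receptor through a repeated motif in their promoters, which is why their sequences are shown.

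The 250 bases before the RefSeq start (GRCm38.p6) of these 2 genes are printed 5′ to 3′ on the gene's strand, with the half-sites of a direct repeat in capitals. The Cyp26a1 stretch is chr19:37697558-37697807 on the plus strand and the Rarb stretch is chr14:16575477-16575726 on the minus strand. In both genes the RefSeq start lies inside the gene span of the files' annotation.
Cyp26a1: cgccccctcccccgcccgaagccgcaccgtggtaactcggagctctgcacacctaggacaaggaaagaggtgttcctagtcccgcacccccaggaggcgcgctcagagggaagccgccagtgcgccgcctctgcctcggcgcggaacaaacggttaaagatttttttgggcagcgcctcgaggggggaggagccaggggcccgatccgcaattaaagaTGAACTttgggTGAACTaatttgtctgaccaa
Rarb: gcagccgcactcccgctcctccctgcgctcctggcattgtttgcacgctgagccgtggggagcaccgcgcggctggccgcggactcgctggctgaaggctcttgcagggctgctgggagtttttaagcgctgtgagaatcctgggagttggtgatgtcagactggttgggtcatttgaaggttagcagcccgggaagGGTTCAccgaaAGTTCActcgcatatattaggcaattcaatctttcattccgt
The letters searched were the half-site AGGTCA, the variant AGTTCA, the variant GGTTCA and the variant GGGTCA on both strands, as direct repeats with 5 or 2 bases between them. The Cyp26a1 repeat lies 32 to 16 bases before the start at chr19:37697776-37697792, and it reads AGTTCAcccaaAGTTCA on the strand opposite the gene. The Rarb repeat lies 53 to 37 bases before the start at chr14:16575513-16575529 and reads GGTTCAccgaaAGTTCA on the gene's own strand. RefSeq promoters were given for 6 of the 9 genes (Aldh1a1, Aldh1a2, Cyp26a1, Cyp26b1, Crabp1 and Rarb), and only Cyp26a1 and Rarb held a repeat with 5 bases between half-sites, as did 29 of all 32851 promoters (0.0883%). The repeat with 2 bases between half-sites was in 0 of these 6 genes and in 57 promoters (0.174%), whereas a single half-site was in 12694 (38.6%). A match of letters is a description and shows no binding.

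Expression is given as deposited TPM, which is scaled to gene length, so levels can be compared between genes. The 44 libraries held between 3.53 and 12.04 Gb of bases aligned to genes as implied by the tables, with a median of 6.80, and between 10382 and 13596 genes above 1 TPM. Differences were tested with limma on log2(TPM + 1), and a gene was called at a Benjamini-Hochberg adjusted p under 0.05 over all genes tested together with an absolute log2 fold change above 1, so the fold change of a low gene is understated. Here ± is SD for a level and standard error for a log2 fold change. Epi held 1067 to 1852 TPM of Pou5f1, a defining epiblast gene, and Ttr of the visceral endoderm was listed at 0 in all 4 of them, although the extraction text of that group names EmVE tissue. Epcam was present in every library. Trp53 transcript was present in the libraries labelled Trp53 KO, at 33.4, 167 and 117 TPM in exSI and 42.5, 124 and 122 TPM in exColon, against 151 to 245 TPM in emSI and emColon. The genotype was made with Cas9 and guides to exons, which can leave a transcript, so this level does not check the label.

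**Figure D1:**
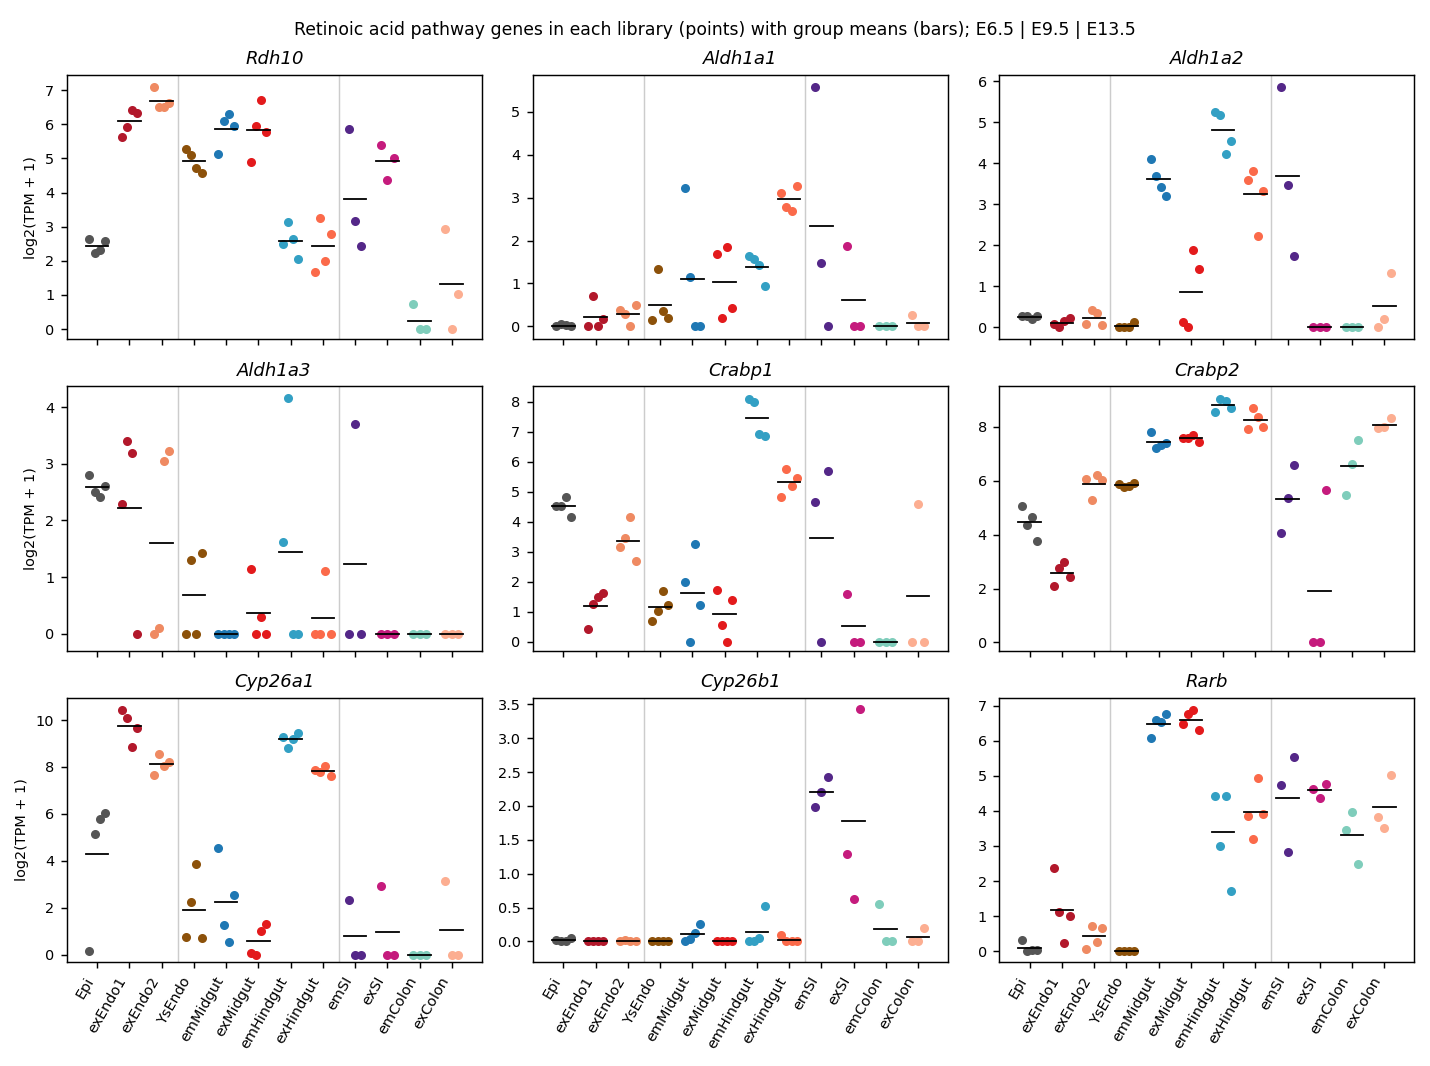
Level of each of the 9 genes in every library as log2(TPM + 1), with the 12 groups along the horizontal axis, 1 point per library and a bar at the group mean. Cyp26a1 is highest in exEndo1 and emHindgut, Rarb in both midgut groups, Crabp1 in emHindgut, and Rdh10 in exEndo2. The group means of Aldh1a3 and Cyp26b1 are low throughout, although Aldh1a3 is at 16.9 TPM in emHindgut replicate 2 and 12.02 TPM in emSI replicate 2.

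Rdh10 (ENSMUSG00000025921, chr1:16105774-16133734, mm10), which encodes the retinol dehydrogenase of the first step, was an extraembryonic endoderm gene at E6.5. At E9.5 it was higher in the midgut than in the hindgut and was also present in YsEndo. In Epi it was at 5.21, 3.71, 4.02 and 4.97 TPM, in exEndo1 at 48.6, 59.5, 85.4 and 80.3 TPM, and in exEndo2 at 135, 90.6, 90.8 and 98.3 TPM. Every extraembryonic library was above every Epi library, and the difference was 3.64 ± 0.20 on the log2 scale for exEndo1 (adjusted p = 5.75e-08) and 4.24 ± 0.17 for exEndo2 (adjusted p = 1.69e-09). At E9.5 YsEndo ranged from 22.9 to 37.7 TPM, which overlapped both midgut groups. The midgut held 33.8, 68.1, 77.7 and 61.2 TPM in emMidgut and 28.5, 61.0, 103 and 54.3 TPM in exMidgut. The hindgut held 4.59, 7.86, 5.25 and 3.15 TPM in emHindgut and 2.17, 8.51, 3.02 and 5.92 TPM in exHindgut. Both hindgut groups lay wholly below both midgut groups, with log2 fold changes of −3.29 ± 0.30 among the embryonic cells (adjusted p = 2.21e-06) and −3.40 ± 0.42 among the extraembryonic cells (adjusted p = 7.70e-05). Origin made no difference that passed the test in either region, at −0.04 in the midgut (95% interval −0.75 to 0.67, adjusted p = 0.969) and −0.15 in the hindgut (95% interval −1.04 to 0.73, adjusted p = 0.893).

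By E13.5 Rdh10 was at 57.2, 8.06 and 4.36 TPM in emSI and at 41.1, 19.7 and 31.02 TPM in exSI. In the colon it was at 0.68 TPM or listed at 0 in emColon, and at 6.69, 0 and 1.02 TPM in exColon. From emHindgut to emColon the level fell by 2.33 on the log2 scale (standard error 0.45, adjusted p = 0.00613). With every emColon library below 1 TPM, Rdh10 entered that comparison only through emHindgut and could only come out lower. The lower level in emSI than in emMidgut passed the test (−2.05 ± 0.66, adjusted p = 0.0446), but leaving out any of 6 libraries in turn ended that call: emMidgut replicate 1 (adjusted p = 0.056), 2 (0.107), 3 (0.119) or 4 (0.102), or emSI replicate 2 (0.118) or 3 (0.127). Over the 12 groups Rdh10 had its highest mean in exEndo2 (104 ± 21.1 TPM, n = 4), followed by exEndo1 and the 2 midgut groups near 60 to 68 TPM. Of the neighbours in that order, only the step from exEndo2 to exEndo1 had ranges that did not overlap.

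Aldh1a2 (ENSMUSG00000013584, chr9:71215789-71296243), the main retinaldehyde dehydrogenase of the early embryo, differed with origin in both gut regions. In the midgut it was at 16.2, 11.8, 9.76 and 8.2 TPM in emMidgut and at 0.080, 0, 2.67 and 1.66 TPM in exMidgut. In the hindgut it was at 37.3, 35.4, 17.9 and 22.3 TPM in emHindgut and at 11.1, 13.1, 3.70 and 8.99 TPM in exHindgut. The groups did not overlap in either region, and the extraembryonic cells were lower by 2.76 ± 0.50 on the log2 scale in the midgut (log2 fold change −2.76, adjusted p = 0.0065) and by 1.56 ± 0.35 in the hindgut (log2 fold change −1.56, adjusted p = 0.0191). The difference between these 2 origin effects did not pass the test (1.19 ± 0.62, 95% interval −0.11 to 2.49, adjusted p = 0.702). With both regions together, exGut had 5.16 ± 5.15 TPM and emGut 19.9 ± 11.1 TPM (n = 8 each; log2 fold change −2.16 ± 0.54, adjusted p = 0.0284).

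These Aldh1a2 calls sat near the threshold, and in the midgut Aldh1a2 passed the filter only through emMidgut, where it was higher. The pooled call ended without exMidgut replicate 1 (adjusted p = 0.0516), 2 (0.053) or 4 (0.0544), without emHindgut replicate 1 (0.0636), 2 (0.0617), 3 (0.0509) or 4 (0.0561), with a pseudocount of 0.1 (0.0722) and with no filter on low values (0.0613). The hindgut call ended without emHindgut replicate 1 (0.0697) or 2 (0.0652), with no filter (0.105), and when all 44 libraries shared 1 estimate of the spread (0.0656). The midgut call ended with no filter (0.0518) and without emMidgut replicates 1 and 3 together (0.118), when the log2 fold change was −2.59 in place of −2.76. Those 2 libraries held germ cell transcripts, with Dppa3 at 224 and 183 TPM against 0 in the other two emMidgut libraries, while their Aldh1a2 levels of 16.2 and 9.76 TPM were interleaved with the others.

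Mesenchyme, known to express Aldh1a2 in the gut wall, was followed with 9 marker genes. The E9.5 gut cells had been enriched for EPCAM with magnetic beads and sorted for it. Fewer cells of a type and less RNA per cell cannot be told apart in these bulk libraries. The summed level of the list was 38.1 to 101 TPM in emMidgut against 21.4 to 31.4 in exMidgut, and 42.5 to 58.5 in emHindgut against 21.1 to 38.2 in exHindgut. The sum thus moved with Aldh1a2 between origins, but most genes of the list were not called. By gene, 1 of 4 tested was called lower in the midgut and 1 of 6 in the hindgut, with 0 called higher. Over all genes 1.34% and 1.70% were called lower. The median log2 fold changes of the list were −0.10 and −0.95, beside −0.04 and −0.02 for all genes. Between regions its median was 63.7 TPM in emMidgut and 54.7 in emHindgut, and 27.6 in exMidgut and 28.6 in exHindgut. Aldh1a2 itself was higher in the hindgut of both origins. The defining genes Col3a1 and Foxf1 were at or near 0 in emMidgut (at most 0.030 TPM), and in emMidgut most of the sum was Postn (19.8 to 86.1 TPM). A list of 8 neural genes also moved with origin, at 27.3 to 65.9 TPM in emMidgut against 0.25 to 5.17 in exMidgut, and at 54.5 to 73.9 TPM in emHindgut against 8.33 to 25.5 in exHindgut. In the midgut alone, 5 mesothelium genes, at 7.81 to 14.5 TPM in emMidgut against 0.98 to 7.09 in exMidgut, and 4 posterior gut genes, at 301 to 409 TPM against 135 to 184, were also lower in the extraembryonic cells without overlap. The visceral and yolk sac endoderm markers went the opposite way in both regions, and in the hindgut so did the epithelium and endoderm markers, at 635 to 850 TPM in exHindgut against 468 to 586 in emHindgut. The part of these lists in the Aldh1a2 difference was not tested.

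At E6.5 Aldh1a2 was low in Epi, exEndo1 and exEndo2, at no more than 0.34 TPM in any library, and it was listed at 0 in 3 of the 4 YsEndo libraries. Hindgut cells held more of it than midgut cells of the same origin, by 1.2 ± 0.29 in the embryonic cells (adjusted p = 0.00714) and 2.39 ± 0.54 in the extraembryonic cells (adjusted p = 0.00694). The first of these did not pass when all 44 libraries shared 1 fit (adjusted p = 0.0848). At E13.5 the 3 emSI libraries were at 57.1, 9.99 and 2.36 TPM, and all 3 exSI and all 3 emColon libraries were listed at 0. In the same order, the mesenchyme list summed to 523, 157 and 1.75 TPM in emSI, with Col3a1 at 203, 43.9 and 0 TPM, so the order of the 3 libraries was that of Aldh1a2. The comparison of exSI with emSI did not pass over all genes (adjusted p = 0.148), and the fall from emHindgut to emColon did (adjusted p = 0.00019). With exSI and emColon at 0, Aldh1a2 entered these comparisons only through emSI and emHindgut, and could only come out lower.

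**Figure D2:**
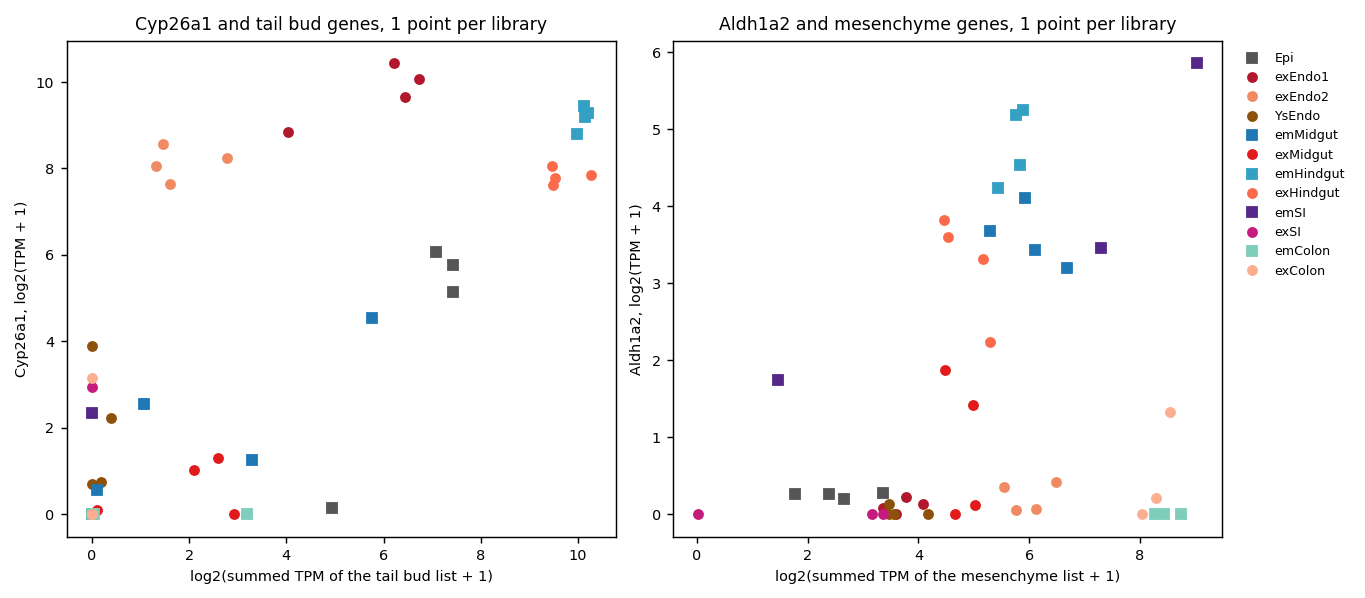
Left, Cyp26a1 against the summed level of 6 tail bud genes, and right, Aldh1a2 against the summed level of 9 mesenchyme genes, both axes as log2(TPM + 1), with 1 point per library, squares for embryonic and circles for extraembryonic groups. The 8 hindgut libraries are high on both left axes, whereas the exEndo libraries hold much Cyp26a1 with less tail bud signal. On the right the 3 emSI libraries are spread along both axes and the colon libraries, whose list level is mostly Postn, are high on the horizontal axis only.

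Aldh1a1 (ENSMUSG00000053279, chr19:20492715-20643465) and Aldh1a3 (ENSMUSG00000015134, chr7:66390890-66427517) encode the related dehydrogenases, with group means of at most 16.1 and 5.40 TPM. At E6.5 the mean of Aldh1a3 was above that of Aldh1a2 in Epi (5.03 against 0.19 TPM), exEndo1 (5.40 against 0.079 TPM) and exEndo2 (3.93 against 0.17 TPM). Aldh1a1 was at 2.13, 1.95, 1.70 and 0.91 TPM in emHindgut and at 7.63, 5.86, 5.47 and 8.62 TPM in exHindgut. These ranges did not overlap, and Aldh1a1 was the only one of the 9 genes called higher in exHindgut (log2 fold change 1.57 ± 0.35, adjusted p = 0.019). That call ended without emHindgut replicate 4 (adjusted p = 0.061), without exHindgut replicate 4 (0.0583), or in the fit of all 44 libraries (0.262). In the midgut its values were 8.29, 1.23, 0 and 0 TPM in emMidgut and 2.22, 0.14, 2.61 and 0.354 TPM in exMidgut, with overlapping ranges and a 95% interval of −1.60 to 1.49 on the log2 scale. ExHindgut was above exMidgut (1.92 ± 0.48, adjusted p = 0.0125). The highest value of all was 46.5 TPM in emSI replicate 1, the library with the highest mesenchyme sum, beside 1.78 and 0 TPM in the other two emSI libraries.

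Aldh1a3 was at 5.97, 4.67, 4.36 and 5.12 TPM in Epi, at 3.89, 9.56, 8.16 and 0 TPM in exEndo1, and at 0, 0.071, 7.32 and 8.32 TPM in exEndo2. The ranges overlapped, and neither extraembryonic group passed the test against Epi (adjusted p = 0.614 and 0.206). Without exEndo2 replicate 4 the comparison with exEndo2 did pass (log2 fold change −1.53, adjusted p = 0.0447). After E6.5 it was above 0 in 2 YsEndo, 2 exMidgut, 2 emHindgut, 1 exHindgut and 1 emSI libraries, with 16.9 TPM in emHindgut replicate 2 and 12.02 TPM in emSI replicate 2 as the highest. It was listed at 0 in all libraries of emMidgut, exSI, emColon and exColon.

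Crabp1 (ENSMUSG00000032291, chr9:54764748-54773110) and Crabp2 (ENSMUSG00000004885, chr3:87948666-87953376) encode the cellular retinoic acid binding proteins, and Crabp1 was the member with the largest origin difference called in the hindgut. Crabp1 was at 273, 252, 119 and 114 TPM in emHindgut and at 27.4, 53.4, 35.2 and 42.5 TPM in exHindgut. All emHindgut libraries were above all exHindgut libraries, with means of 190 ± 84.8 and 39.6 ± 11.1 TPM (log2 fold change −2.16 ± 0.28, adjusted p = 0.000315), although in the fit of all 44 libraries the adjusted p was 0.166. In the midgut Crabp1 was low in both origins, at 2.94, 0, 8.60 and 1.32 TPM in emMidgut and at 2.28, 0.47, 0 and 1.59 TPM in exMidgut. The hindgut was above the midgut by 5.85 ± 0.53 in the embryonic cells (adjusted p = 1.76e-06) and by 4.39 ± 0.42 in the extraembryonic cells (adjusted p = 9.32e-06).

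At E6.5 Crabp1 was at 16.8 to 27.1 TPM in Epi, at 0.34 to 2.08 TPM in exEndo1 and at 5.46 to 16.9 TPM in exEndo2. It fell from Epi to exEndo1 by 3.30 on the log2 scale (standard error 0.26, adjusted p = 9.74e-07), and exEndo1 was also below exEndo2 (−2.17 ± 0.34, adjusted p = 0.00178). The call of exEndo2 below Epi (−1.14 ± 0.28, adjusted p = 0.0032) came with overlapping ranges and ended without exEndo2 replicate 4, where the log2 fold change was −0.92. The 2 differences between exEndo2 and the other E6.5 groups did not pass in the fit of all 44 libraries (adjusted p = 0.257 against Epi and 0.124 against exEndo1). At E13.5 it was seen in 2 emSI libraries, at 24.3 and 50.05 TPM, in 1 exSI library at 2.03 TPM and in 1 exColon library at 22.8 TPM, and all 3 emColon libraries were listed at 0.

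Crabp2 was the member with a mean above 1 TPM in all 12 groups, beside Rdh10 with 11, and its mean was lowest in exEndo1. At E6.5 it was at 3.32, 5.85, 6.88 and 4.37 TPM in exEndo1 and at 65.6, 37.6, 73.1 and 63.9 TPM in exEndo2, with 12.6 to 32.1 TPM in Epi. The distal endoderm lay below the proximal endoderm by 3.32 on the log2 scale (log2 fold change −3.32 ± 0.24, adjusted p = 1.42e-05), the largest of the differences called between these 2 groups among the members. Against Epi, Crabp2 moved in opposite directions, at −1.88 ± 0.28 in exEndo1 (adjusted p = 0.000126) and 1.44 ± 0.27 in exEndo2 (adjusted p = 0.00059), the latter at an adjusted p of 0.0569 in the fit of all 44 libraries.

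At E9.5 Crabp2 was at 222, 149, 161 and 168 TPM in emMidgut and at 190.0, 193, 204 and 173 TPM in exMidgut, and the ranges overlapped (log2 fold change 0.13, 95% interval −0.17 to 0.43, adjusted p = 0.699). In the hindgut it was at 375, 527, 497 and 417 TPM in emHindgut and at 243, 415, 326 and 256 TPM in exHindgut. That difference of −0.57 ± 0.16 had an adjusted p of 0.0496 and was under the fold required for a call. The origin effects of the regions differed by −0.70 ± 0.22 (95% interval −1.16 to −0.24), which did not pass over all genes (adjusted p = 0.338). The embryonic hindgut was above the embryonic midgut (1.38 ± 0.14, adjusted p = 5.18e-06; 0.133 in the fit of all 44 libraries), and the extraembryonic hindgut was above the extraembryonic midgut by less than the fold required (0.67 ± 0.16, adjusted p = 0.00813). YsEndo held 53.3 to 58.8 TPM, below all exGut libraries (2.08 ± 0.20, adjusted p = 7.42e-07).

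In the colon at E13.5 Crabp2 was at 43.1, 96.8 and 180.5 TPM in emColon and at 246, 250 and 316 TPM in exColon. These ranges did not overlap, yet the difference did not pass over all genes (1.55 ± 0.43, 95% interval 0.60 to 2.50, adjusted p = 0.268). In the small intestine it was at 15.7, 39.7 and 94.96 TPM in emSI and at 0, 0 and 49.9 TPM in exSI. ExColon against exSI was called (6.19 ± 1.17, adjusted p = 0.0363), but leaving out exSI replicate 1 (adjusted p = 0.167) or 2 (0.168), or exColon replicate 1 (0.0903), 2 (0.0592) or 3 (0.0888), ended the call, as did a pseudocount of 0.1 (0.145) and no filter (0.338).

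Cyp26a1 (ENSMUSG00000024987, chr19:37697798-37701536) encodes the main retinoic acid hydroxylase of the early embryo, and it reached the highest level of the 9 genes. In exEndo1 it was at 1384, 1080, 456 and 809 TPM, between the 112th and the 341st most abundant of 21454 protein-coding genes in these libraries. In exEndo2 it was at 199.7, 375, 265 and 299.8 TPM, below every exEndo1 library. Epi had 0.11, 34.0, 53.4 and 65.6 TPM, and the first of these was far below the others. The fold changes against Epi were 5.48 ± 1.06 for exEndo1 (adjusted p = 0.000861) and 3.85 ± 1.02 for exEndo2 (adjusted p = 0.00545), and exEndo1 exceeded exEndo2 by 1.63 ± 0.30 (adjusted p = 0.00427; 0.465 in the fit of all 44 libraries). In Epi replicate 1 the tail bud list, which at this stage holds primitive streak genes such as T and Fgf8, summed to 29.6 TPM against 135 to 172 TPM in the other three Epi libraries.

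At E9.5 Cyp26a1 was a hindgut gene in both lineages. It was at 625, 447, 586 and 699 TPM in emHindgut and at 231, 218, 265 and 196 TPM in exHindgut, against 22.2, 1.39, 0.47 and 4.86 TPM in emMidgut and 0.063, 0, 1.03 and 1.46 TPM in exMidgut. The hindgut exceeded the midgut by 6.96 ± 0.59 in embryonic cells (adjusted p = 9.57e-07) and by 7.23 ± 0.33 in extraembryonic cells (adjusted p = 7.92e-09), and the difference between these 2 effects did not pass (0.27, 95% interval −1.31 to 1.84, adjusted p = 0.976). Within the hindgut the extraembryonic cells were lower without overlap, with means of 228 ± 28.9 against 589 ± 106 TPM (log2 fold change −1.36 ± 0.13, adjusted p = 1.75e-05; 0.634 in the fit of all 44 libraries). In the midgut the origin difference did not pass (−1.62, 95% interval −3.21 to −0.04, adjusted p = 0.29).

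The 6 tail bud genes moved with hindgut identity, and their sum overlapped between origins. Their sum was 1012 to 1172 TPM in emHindgut and 708 to 1228 TPM in exHindgut, and at most 52.9 TPM in the midgut libraries, with all 6 genes above 1 TPM on average in both hindgut groups. In exHindgut against emHindgut 2 of the 6 were called lower and 4 were not called, beside 1.70% of all genes called lower. Of the tail bud mesoderm genes within the list, Tbx6 was at 1.66 to 21.2 TPM in exHindgut against 31.4 to 67.4 TPM in emHindgut. Wnt3a was at 12.6 to 32.6 TPM against 43.0 to 55.7 TPM. EmMidgut replicate 1, which had the highest Cyp26a1 of its group, also had the highest tail bud sum, 52.9 TPM. The E9.5 gut cells had been sorted for EPCAM. The part of tail bud cells in the Cyp26a1 and Crabp1 values was not tested. YsEndo held 0.62 to 13.8 TPM of Cyp26a1, and at E13.5 it was seen in 1 library each of emSI, exSI and exColon, at 4.05, 6.68 and 7.91 TPM, and listed at 0 in all emColon libraries.

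Cyp26b1 (ENSMUSG00000063415, chr6:84571414-84593908), the second hydroxylase, was at no more than 0.44 TPM in any E6.5 or E9.5 library. At E13.5 it was at 2.97, 3.61 and 4.37 TPM in emSI and at 1.44, 0.54 and 9.77 TPM in exSI, whereas the colon libraries held at most 0.46 TPM. EmSI was above emMidgut without overlap (2.10 ± 0.45, adjusted p = 0.00797), a call that ended without emMidgut replicates 1 and 3 together (adjusted p = 0.118), and emColon was not separated from emSI over all genes (−2.02, adjusted p = 0.327). EmMidgut held at most 0.20 TPM, so Cyp26b1 entered its comparison with emSI only through emSI. The filter thus set the direction and the lack of overlap there.

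Rarb (ENSMUSG00000017491, chr14:16430839-16819156), the receptor gene that retinoic acid itself induces in many tissues, was highest in the midgut at E9.5. It was at 66.9, 95.2, 91.4 and 106 TPM in emMidgut and at 87.4, 108, 117 and 77.4 TPM in exMidgut. It was at 20.5, 6.92, 20.5 and 2.30 TPM in emHindgut and at 13.4, 8.23, 29.9 and 13.9 TPM in exHindgut. Every midgut library was above every hindgut library, and the hindgut was lower by 3.10 in embryonic cells (log2 fold change −3.10 ± 0.46, adjusted p = 0.000175) and by 2.63 in extraembryonic cells (log2 fold change −2.63 ± 0.31, adjusted p = 4.92e-05). The 2 origins overlapped in both regions, with log2 fold changes of 0.11 in the midgut (95% interval −0.28 to 0.51, adjusted p = 0.822) and 0.59 in the hindgut (95% interval −0.56 to 1.74, adjusted p = 0.618).

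Rarb was low at E6.5, at no more than 0.24 TPM in Epi, 4.14 TPM in exEndo1 and 0.64 TPM in exEndo2, and all 4 YsEndo libraries were listed at 0. ExGut, with a mean of 56.9 TPM, was above YsEndo (adjusted p = 8.48e-06), without a fold since YsEndo was at 0. At E13.5 every library held Rarb, with 25.5, 6.08 and 45.2 TPM in emSI, 23.6, 19.5 and 26.3 TPM in exSI, 9.86, 14.6 and 4.62 TPM in emColon and 13.1, 10.51 and 31.3 TPM in exColon. Neither organ showed an origin difference that passed (adjusted p = 0.931 in the small intestine and 0.762 in the colon). EmSI was below emMidgut (−2.13 ± 0.50, adjusted p = 0.012), but not without emMidgut replicates 1 and 3 together (0.08) or with no filter (0.0697), and the difference of emColon from emHindgut did not pass (−0.09, 95% interval −1.74 to 1.56, adjusted p = 0.938).

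**Figure D3:**
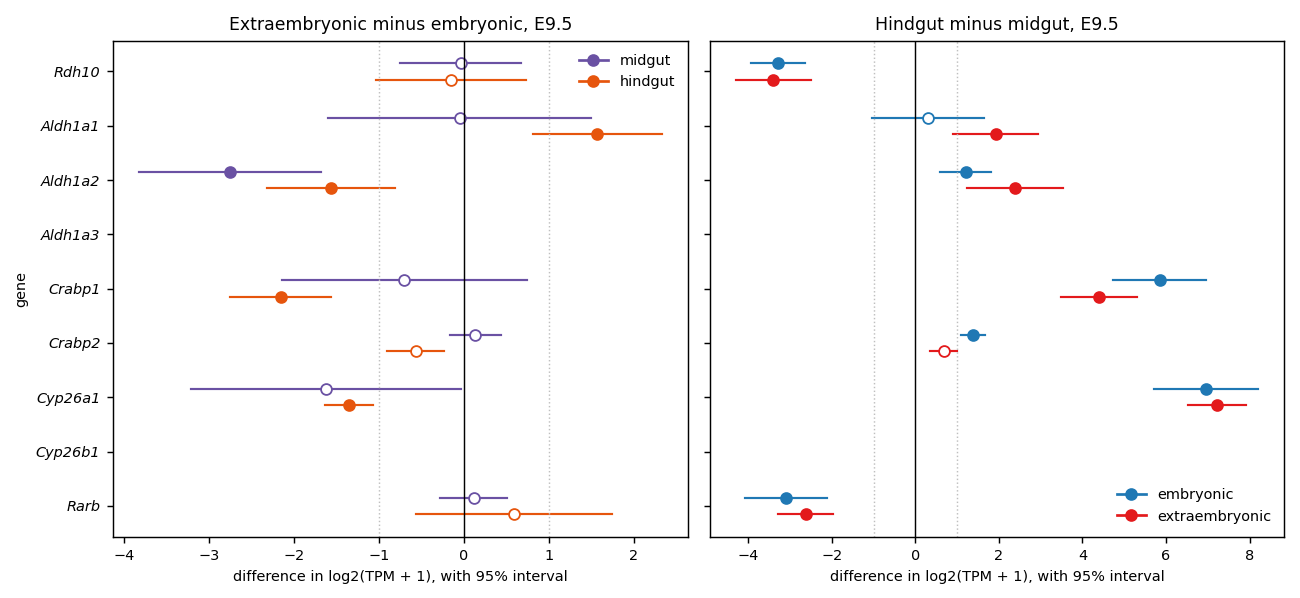
Log2 fold changes of the members tested in the E9.5 comparisons, with 95% intervals as bars, filled points for calls and open points for differences that were not called. The regional differences are large and point the same way in both origins for Cyp26a1, Crabp1, Rdh10 and Rarb, and Aldh1a2 is lower in extraembryonic cells of both regions.

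Counted over the 9 genes, origin separated 1 member in the midgut and 4 in the hindgut, and region separated 6. In exMidgut against emMidgut 1 of 7 tested members was called, Aldh1a2, which was lower. It passed the filter only through emMidgut, which favoured that direction. The share of all tested genes called was 2.54%, with 1.34% lower, and 1 member had ranges that did not overlap beside 10.3% of genes. In exHindgut against emHindgut 4 of 7 were called, Aldh1a1 higher and Aldh1a2, Cyp26a1 and Crabp1 lower. There 3.06% of genes were called, 1.36% higher and 1.70% lower, and the 4 called members were also those whose ranges did not overlap, beside 11.9% of genes. With the regions pooled 1 of 8 was called, lower, beside 2.33% of genes called and 1.26% called lower. With region as a covariate 3 were called (Aldh1a2, Cyp26a1 at −1.49 and Crabp1 at −1.43). The origin effects of the 2 regions differed for 0 of 8 members by limma, beside 0.0966% of genes, with 1 member (Crabp2) at an unadjusted p under 0.05, so the larger count in the hindgut is not shown to be a difference between regions.

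Between regions, 6 of 7 members were called in emHindgut against emMidgut, 4 higher and 2 lower, beside 13.8% of genes (5.24% higher and 8.60% lower). In exHindgut against exMidgut 6 of 7 were called as well, 4 higher and 2 lower, beside 11.3% of genes (4.51% higher and 6.76% lower). The members lower in the hindgut were Rdh10 and Rarb in both origins. Those higher in both were Aldh1a2, Cyp26a1 and Crabp1, joined by Crabp2 in the embryonic and Aldh1a1 in the extraembryonic cells. The median log2 fold change of the tested members was 1.2 and 1.92 in these comparisons, beside −0.02 and 0.01 for all genes. The 4 members called higher in exHindgut were each below 1 TPM in some exMidgut libraries and passed the filter only through exHindgut. The filter thus favoured that direction, both in the count and in the median of 1.92. Cyp26a1 and Crabp1 also needed emHindgut libraries to pass in the embryonic comparison.

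At E6.5, 4 of 5 tested members were called in exEndo1 against Epi, with Rdh10 and Cyp26a1 higher and Crabp1 and Crabp2 lower, beside 33.4% of genes (19.8% higher and 13.6% lower). In exEndo2 against Epi 4 of 5 were called, with Crabp2 now among the higher genes, beside 35.8% (20.4% higher and 15.4% lower). These comparisons share the Epi libraries. Between exEndo1 and exEndo2, 3 of 5 were called, Cyp26a1 higher and Crabp1 and Crabp2 lower in exEndo1, beside 6.41% (3.96% higher and 2.45% lower). Rdh10 was not called there (−0.61, 95% interval −1.03 to −0.19, adjusted p = 0.0586).

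Between exGut and YsEndo 4 of 8 members were called, Aldh1a1, Aldh1a2, Crabp2 and Rarb, all higher in exGut, beside 42.4% of genes (32.3% higher). Cyp26a1 and Crabp1 were not called with the regions pooled. Cyp26a1 was at 196 to 265 TPM in exHindgut, 0 to 1.46 TPM in exMidgut and 0.62 to 13.8 TPM in YsEndo. In the same order Crabp1 was at 27.4 to 53.4, 0 to 2.28 and 0.60 to 2.21 TPM. The fit of all 44 libraries called both (2.328, adjusted p = 0.00801, and 1.965, adjusted p = 0.0128). Aldh1a2 was higher by 2.01 ± 0.67 (adjusted p = 0.0182) and Aldh1a1 by 1.49 ± 0.57 (adjusted p = 0.0346). Aldh1a2 and Rarb were below 1 TPM in every YsEndo library, so they entered only through exGut and could only come out higher. Aldh1a1 was at 5.47 to 8.62 TPM in exHindgut, whereas exMidgut (0.14 to 2.61 TPM) overlapped YsEndo (0.11 to 1.53 TPM). The Aldh1a1 call was lost in 9 of 17 alternatives, among them leaving out YsEndo replicate 1 (0.0909), 3 (0.0789) or 4 (0.0884) or exHindgut replicate 1 (0.0556), 2 (0.0553), 3 (0.0547) or 4 (0.0557). Of all genes called in that comparison 76.3% were higher in exGut, and 54.5% after median-ratio rescaling, which moved the median of all genes by −0.53.

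At E13.5 few members passed. Between exColon and emColon limma called 0 of 2, beside 0.269% of genes, with 1 at an unadjusted p under 0.05, and Crabp2 was the 1 member without overlap beside 16.0% of genes. Between exSI and emSI it called 0 of 7, beside 0.739%, with 3 at an unadjusted p under 0.05, and Aldh1a2 was the 1 member without overlap beside 15.7%. Aldh1a2 was at 0 in exSI and entered only through emSI, so the filter set that lack of overlap. Leaving out emSI replicate 2 brought Crabp1 past the test there (−4.63, adjusted p = 0.0395), and leaving out exSI replicate 3 brought Crabp2 past it (−5.33, adjusted p = 0.0239). Between emColon and emSI limma called 0 of 5, beside 0.472%, with 3 at an unadjusted p under 0.05, and between exColon and exSI it called 1 of 3, Crabp2, beside 0.693% (0.219% higher). The origin effects of the organs differed for 0 of 8 members by limma, beside 0.0160%, with 3 at an unadjusted p under 0.05.

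Across stages, 4 of 8 members were called from emMidgut to emSI, with Cyp26b1 higher and Rdh10, Crabp2 and Rarb lower, beside 16.8% of genes. Cyp26b1 entered only through emSI and could only come out higher. The sorting gate, the pooling of embryos and the bead enrichment described for the E9.5 gut changed with stage. The Trp53 genotype of the extraembryonic lineage in the same embryos changed as well, so these cannot be told apart. Crabp2 fell by 2.11 on the log2 scale (standard error 0.45, adjusted p = 0.00705), and its call ended with no filter (0.0534) and without emMidgut replicates 1 and 3 together (0.0865). From emHindgut to emColon 6 of 7 were called, all lower, beside 20.7% (16.6% lower), and Rarb was the exception. Rdh10, Aldh1a1, Aldh1a2, Cyp26a1 and Crabp1 were below 1 TPM in every emColon library. They entered only through emHindgut and could only come out lower, so their shared direction is no result. Aldh1a1, Aldh1a2, Cyp26a1 and Crabp1 were listed at 0 in emColon (adjusted p = 0.0195, 0.00019, 1.17e-07 and 2.07e-05), and the Aldh1a1 call did not hold in the fit of all 44 libraries (0.0996). Crabp2 fell by 2.29 there (standard error 0.40, adjusted p = 0.00384). Of the called genes 19.4% and 20.1% were higher in these comparisons, and 39.5% and 38.6% after rescaling, which moved the median of all genes by 0.27 and 0.32.

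Among 16 further genes of retinoid uptake, transport, storage and reception, and 9 genes known to respond to retinoic acid, the called genes were as follows. In exMidgut against emMidgut 1 of 13 tested genes of the first list was called (Ttr, which encodes the plasma carrier transthyretin, 2.07 ± 0.23 higher, adjusted p = 9.06e-05) and 0 of 6 of the second, beside 2.54% of all genes tested. In exHindgut against emHindgut it was again Ttr of 13 (3.70 ± 0.98, adjusted p = 0.0404), and Hoxb1 of 8 (−5.08, adjusted p = 9.78e-07), beside 3.06% of all genes. Pooled over regions none of the 14 and none of the 8 was called, beside 2.33% of all genes. The 7 visceral and yolk sac endoderm markers, a list that holds Ttr itself, summed to 7079 to 16950 TPM in exMidgut against 1459 to 3182 TPM in emMidgut, with 6 called higher, and to 115 to 686 TPM in exHindgut against 26.7 to 86.8 TPM in emHindgut, with 3 called higher. Their part in the Ttr difference was not tested. Between regions 2 of 12 genes of the first list were called higher and 5 lower in emHindgut than in emMidgut, and 3 higher and 5 lower of 12 in exHindgut than in exMidgut. Of the genes known to respond to retinoic acid, 3 of 8 were called higher and 3 lower in emHindgut than in emMidgut, and 0 of 6 higher and 3 lower in exHindgut than in exMidgut. Over all genes 13.8% and 11.3% were called in these comparisons. Ttr and Hoxb1 were chosen after their values were seen.

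The receptor genes differed in where they were found. Rara was at 36.0 to 62.6 TPM in emMidgut and 37.7 to 54.5 TPM in exMidgut, above the 7.66 to 16.4 TPM of emHindgut and the 17.2 to 21.7 TPM of exHindgut, so that hindgut was lower by 1.88 in embryonic (log2 fold change −1.88 ± 0.27, adjusted p = 0.000144) and by 1.21 in extraembryonic cells (−1.21 ± 0.21, adjusted p = 0.00124). Rarg went the other way, with 22.7 to 29.6 TPM in emHindgut and 14.2 to 25.8 TPM in exHindgut above 3.11 to 13.2 TPM in emMidgut and 5.47 to 14.6 TPM in exMidgut, although the ranges of the extraembryonic groups overlapped (1.64 ± 0.34, adjusted p = 0.00218, and 1.16 ± 0.35, adjusted p = 0.0322). At E6.5 Rarg was at 8.96 to 17 TPM in Epi and at no more than 0.18 TPM in exEndo1 and exEndo2. Of the partner genes, Rxrb was present in every group at means of 11 to 29 TPM, Rxra was at 0.53 to 24.4 TPM, and Rxrg was at 3.44 to 6.84 TPM in the 4 Epi libraries. Elsewhere Rxrg was 0 in at least 1 library of every group, and its highest values were 9.70 TPM in emColon, 7.34 TPM in emMidgut, 6.29 TPM in emSI and 3.58 TPM in exSI.

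Cyp26c1, the remaining hydroxylase gene, was low, with its highest values of 8.15, 0.78, 3.20 and 4.43 TPM in emHindgut beside 1.41, 0.26, 0.91 and 0.48 TPM in exHindgut, a difference that did not pass (−1.36 ± 0.50, adjusted p = 0.146). Dhrs3, which reduces retinaldehyde back to retinol, was at 58.5 to 90.5 TPM in emMidgut and 56.7 to 86.7 TPM in exMidgut and was lower in both hindgut groups (−1.45 ± 0.28, adjusted p = 0.0016, and −1.53 ± 0.33, adjusted p = 0.00573). Stra6, the retinol uptake receptor, ran opposite to Dhrs3, with 10.6 to 20 TPM in emHindgut and 17.2 to 23.1 TPM in exHindgut against at most 6.59 TPM in the midgut libraries (1.47 ± 0.43, adjusted p = 0.0212, and 3.66 ± 0.40, adjusted p = 2.94e-05).

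Rbp4, the plasma retinol carrier gene, was highest in YsEndo, at 10740 to 12830 TPM, and it was lower in the hindgut than in the midgut of both origins (−5.04 ± 0.26 and −5.80 ± 0.35, adjusted p = 1.29e-08 and 1.72e-07). It was higher in exSI than in emSI without overlap, at 2367 to 3753 against 944 to 984 TPM (1.61 ± 0.16, adjusted p = 0.000453). The visceral and yolk sac endoderm markers, which include Rbp4 and Ttr, summed to 4713 to 7644 TPM in exSI against 1690 to 2243 TPM in emSI. That sum in part repeats Rbp4 itself. Of the 7 markers 4 were called higher, beside 0.739% of all genes called in either direction. Their part in the Rbp4 difference was not tested.

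**Figure D4:**
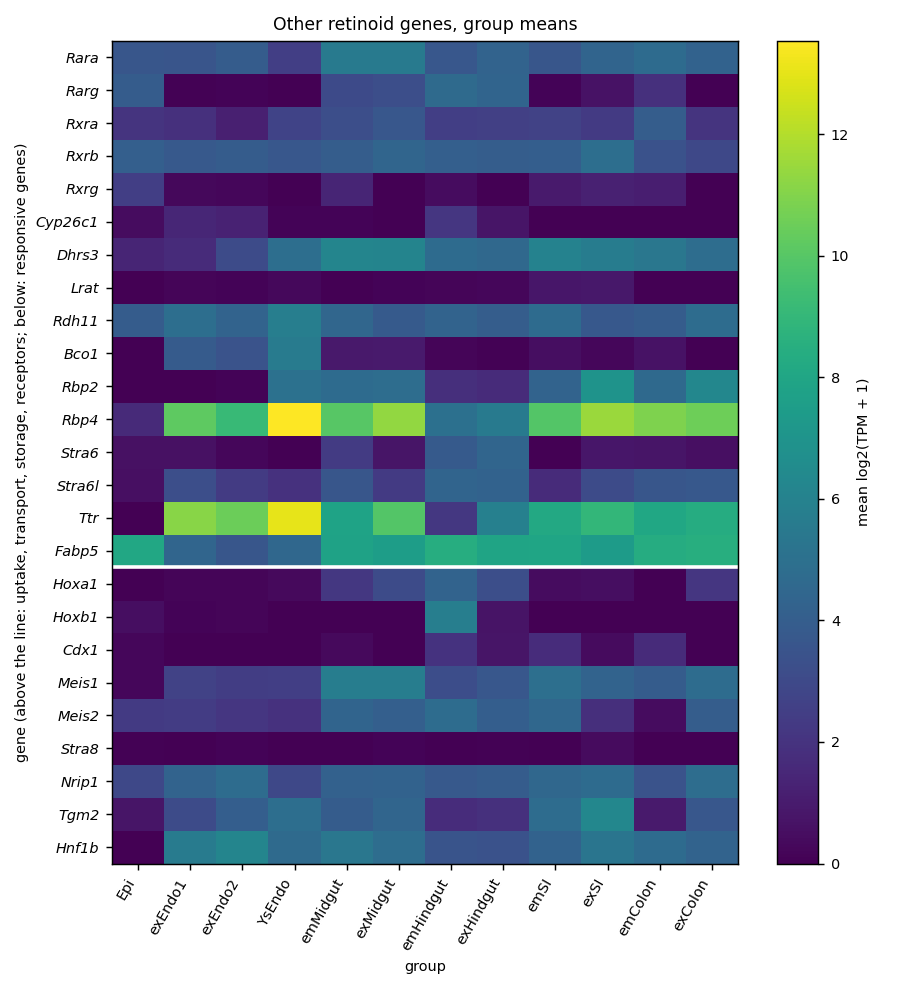
Group means of log2(TPM + 1) for 16 other retinoid genes (above the white line) and 9 genes known to respond to retinoic acid (below it), with the 12 groups as columns and colour as the level. Rbp4 and Ttr are brightest in YsEndo, Rara and Dhrs3 are brighter in the midgut than in the hindgut columns, and Hoxb1 stands out in emHindgut.

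The genes whose group means were most like those of each member were found by Pearson's r over the 12 groups among 15242 genes, as a description over groups that share stage and origin. For Cyp26a1 these were Has2 (r = 0.971), Cd40 (0.959) and Gm49380 (0.955). For Rarb they were Gdpd1 (0.969), Rcn3 (0.967) and Plscr3 (0.965), and for Rdh10 they were Me2 (0.942), Gmppa (0.931) and Ank (0.917). For Aldh1a2 they were Emilin3 (0.959), Pdgfrb (0.957) and Gfra3 (0.945), of which Pdgfrb is a known mesenchyme gene. For Crabp1 they were Inka1 (0.942), Scarf1 (0.941) and Lix1l (0.929), and for Crabp2 they were Hoxb7 (0.879), Kctd11 (0.878) and Rilpl2 (0.861). The lower members gave Mgll (0.921), Ptgs2 (0.896) and Foxf2 (0.893) for Aldh1a1, Far2 (0.941), Kif11 (0.926) and Wdr43 (0.920) for Aldh1a3, and Cpa1 (0.992), Sphk1 (0.988) and Cps1 (0.978) for Cyp26b1, which rest on the few groups where these members were detected.

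Ordered by mean, most neighbouring groups overlapped in their ranges. The steps without overlap, beside the one of Rdh10, were emHindgut above exEndo2 and exHindgut above Epi for Cyp26a1, emHindgut above exHindgut for Crabp1, exColon above exMidgut for Crabp2, exHindgut above exMidgut for Aldh1a2, emSI above emColon for Cyp26b1, and emMidgut above emSI and emColon above exEndo1 for Rarb. Summed over the 9 genes, the level was 1247 to 1340 TPM in emHindgut and 532 to 722 TPM in exHindgut, 326 to 372 and 310 to 430 TPM in emMidgut and exMidgut, and 85.5 to 97.2 TPM in YsEndo. Members with a mean above 1 TPM numbered 8 of 9 in emHindgut, 9 of 9 in emSI and 2 of 9 (Crabp2 and Rarb) in emColon, where 5 were listed at 0 in every library.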

How the data were processed

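Low-input bulk RNA-seq libraries were analysed from gene tables in which the authors deposited TPM, FPKM and coverage (signal) per gene. Per the labels and the study's methods, reads were trimmed with cutadapt 4.1, aligned to mm10 with STAR 2.7.9a and quantified with StringTie 2.0.6 against GENCODE VM23, one table per library. No read counts were used: TPM were summed per gene identifier, and the deposited FPKM and coverage served only to estimate the aligned bases. Depth was taken as the bases these columns imply, so no counting interval is given.

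Genes were kept when protein-coding in GENCODE vM21, not Y-linked and above 1 TPM in at least 4 libraries of a comparison (3 where E13.5 groups entered). A gene below 1 TPM throughout 1 group entered only through the other, so the filter largely set its direction. A gene above 1 TPM in too few libraries of 1 group also needed the other group to enter, which favoured that direction. Each comparison was fitted on its own libraries with limma 3.58.1 (R 4.3.3; trend, two-sided) on log2(TPM + 1), with Benjamini-Hochberg adjustment over all genes tested, and only the interactions had no fold threshold. The script was tested on simulated data. ExGut and emGut pooled midgut and hindgut without a region term. An exact 0 may be a failed estimate, although 13 housekeeping genes were above 0 in every library, and fold changes to groups wholly at 0 were left out.

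The 9 members and all gene lists were chosen with earlier results of these data known. Named genes were all members, the receptors, Cyp26c1, Dhrs3, Rbp4 and Stra6, other retinoid genes called between exGut and emGut, and the 3 genes most like each member. The exGut against emGut clause named no gene, and Ttr and Hoxb1 fall outside the rule. A gene that the rule always names is not reported here. Replicates were numbered in the labels, which do not say whether libraries of different groups shared embryos. Every same-number correlation was above 0.1 only between exEndo1 and exEndo2 (0.146 to 0.380), and no label ties a number to a shared litter or day. Alternatives were a pseudocount of 0.1, no filter, median-ratio rescaling, a replicate block, 1 fit of all libraries, region as a covariate, emMidgut without replicates 1 and 3, and leaving out each library.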

Additional observations from a re-analysis of the deposited data

Results flagged for a closer look

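Cyp26a1 in Epi replicate 1 was listed at 0.108 TPM, far below the 34.0, 53.4 and 65.6 TPM of the other three Epi libraries on the log2 scale. Over the 48 sets of replicates examined in this way, chance alone sets apart about 1 in 20. The same library had the lowest tail bud sum of its group (29.6 TPM against 135 to 172 TPM), and the part of that in the Cyp26a1 value was not tested. Hoxb1, a Hox gene that responds to retinoic acid, had origin effects that differed between hindgut and midgut at E9.5: it was at 65.5, 54.5, 54.8 and 45.3 TPM in emHindgut, at 0.017, 0, 1.33 and 2.05 TPM in exHindgut, and at no more than 0.12 TPM in any midgut library. The difference between the origin effects was −5.04 on the log2 scale (limma interaction, adjusted p = 0.000119). With both midgut groups near 0, no origin effect could appear there. Hoxb1 passed the filter only through emHindgut, so this interaction repeats the hindgut difference and is no separate result.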

How the results depend on the processing

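Of the 44 member calls, 25 were kept under every alternative and 19 were lost under at least 1. Over 60 member results, 492 fits that left out 1 library gave 30 that fell below the threshold and 7 that rose above it, and 318 other fits gave 29 and 14, with 0 reversed in either set. Leaving out emSI replicate 2 brought Crabp1 past the test in emSI against emMidgut (3.55, adjusted p = 0.0113), leaving out exMidgut replicate 3 did so in exGut against YsEndo (2.41, 0.0418), and leaving out exColon replicate 1 did so for Rdh10 in exColon against exSI (−4.42, 0.04996). The cause of these changes was not tested. Where all 44 libraries shared 1 fit, members called became 2 in exEndo2 against Epi, 1 between exEndo1 and exEndo2, 0 in exHindgut against emHindgut, 3 in exSI against emSI and in emColon against emSI, 2 in exColon against exSI and 3 for origin by organ. All genes called in that fit became 458 between exEndo1 and exEndo2, 588 in exGut against emGut, 47 for origin by region, 1850 in exColon against emColon, 765 in exSI against emSI, 1488 in emColon against emSI, 1314 in exColon against exSI, 1400 for origin by organ and 4031 in emColon against emHindgut. With region as a covariate exGut against emGut gave 3 members and 584 genes. A pseudocount of 0.1 gave 0 members in exGut against emGut and 0 in exColon against exSI (11 genes), with 0 genes for origin by region and 10 in exColon against emColon. With no filter on low values members called became 0 in exGut against emGut, 0 in exMidgut against emMidgut (171 genes), 0 in exColon against exSI (2 genes) and 1 in emSI against emMidgut, and genes became 223 in exHindgut against emHindgut, 8 for origin by region, 8 in exColon against emColon, 8 in exSI against emSI, 3 in emColon against emSI and 12 for origin by organ. Without emMidgut replicates 1 and 3 the counts were 0 members and 118 genes in exMidgut against emMidgut, 5 genes for origin by region, and 0 members and 610 genes in emSI against emMidgut. Leaving out single libraries gave 0 to 1 members in exGut against emGut, exSI against emSI, exColon against exSI and origin by organ, and 2 to 3 in emSI against emMidgut, where the full count was 4. Genes called then ranged from 208 to 359 in exMidgut against emMidgut, 236 to 311 in exHindgut against emHindgut, 3 to 19 for origin by region, 2 to 21 in exColon against emColon, 27 to 68 in exSI against emSI, 8 to 36 in emColon against emSI, 7 to 71 in exColon against exSI, 0 to 3 for origin by organ and 1671 to 3072 in emColon against emHindgut. The replicate number as a block changed no count of members called, and moved all genes called by less than 1.5 times (731 to 770 between exEndo1 and exEndo2). Median-ratio rescaling moved the median of all genes by −0.11 in exEndo1 against Epi, −0.18 in exColon against emColon and −0.18 for origin by organ. Groups of 3 at E13.5 limit the precision there, and depth in reads is unknown from TPM.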
